A study of Mus musculus with 9 samples.

Results

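The genes described here are 10 members of the pathway by which leukaemia inhibitory factor acts through gp130 and STAT3: Lif, Osm, Lifr, Il6st, Jak1, Stat3, Socs3, Pim1, Pim3 and Tcl1. They were chosen by name for their place in the pathway, with earlier results of these data known, and matched by symbol and Ensembl gene ID. All 10 were found among the 37990 genes of the count tables and passed the filter on low counts. The RNA came from E14, a mouse embryonic stem cell line kept on gelatin in serum at 10% with LIF at 1000 U/ml, so that every group received LIF in the medium. Cells of each group carried a stably integrated lentiviral pLKO.1 short hairpin, selected with puromycin at 2 ug/ml. The hairpin was directed against Fam60a (the Fam60a knockdown), against Sin3a (the Sin3a knockdown) or against no mouse transcript (the T2SC controls), with 3 libraries in each of the 3 groups, described by the protocol as biological replicates. The titles and the file headers each number the 3 Fam60a knockdown libraries alike, with a different number in each source, and neither states how many hairpins were used per target. SIN3A scaffolds a corepressor complex with histone deacetylases, of which FAM60A (Sinhcaf in the annotation) is a subunit. A knockdown leaves part of its target: in CPM, the read count of a gene divided by the scaled library size, Sinhcaf transcripts stood at 5.72 in the Fam60a knockdown against 13.5 in the controls, and Sin3a transcripts at 125 in the Sin3a knockdown against 286 in the controls. Effects of a hairpin beyond its target cannot be told apart from effects of the knockdown.

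LIF, a secreted cytokine of the interleukin 6 family, binds a receptor made of LIFR and gp130, the signalling chain that the family shares and that Il6st encodes. JAK kinases held by the receptor then phosphorylate STAT3, which enters the nucleus, switches on target genes and so keeps mouse embryonic stem cells undifferentiated in serum. SOCS3, itself induced by STAT3, binds gp130 and JAKs and dampens the signal. Only transcripts were measured, and STAT3 acts when phosphorylated, so the values below are levels of RNA and not of pathway activity.

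One library stood apart. Sin3a knockdown replicate 3 held 2607872 reads against 5511453 to 7674887 in the other 8 libraries. Of its reads 90 were mitochondrial, against 6268 to 7118 in the other 8 libraries. It correlated less with the libraries of its group (mean r = 0.885) than each other library did with those of its own (0.935 to 0.981). Its genes of low GC content were under-represented and those of high GC content over-represented: against the rest of its group, the log2 level deviated by a median of -1.27 in the tenth of genes with at most 42.6% GC and by 0.79 in the tenth with at least 58.2% GC. The model shares its estimate of spread over all 9 libraries, so the results of the 10 genes are given with and without this library, and those of other genes named where leaving it out changed the call. A gene is called where its Benjamini-Hochberg adjusted p over the 14465 genes tested is under 0.05 in the edgeR quasi-likelihood test, and fold changes are log2 values with their SE. By this rule the lower level of Sin3a transcripts in the Fam60a knockdown (-0.40 against the controls) was not called with all libraries. Without Sin3a knockdown replicate 3 it was called (-0.39, adjusted p = 0.00466).

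Of the 10 genes, Osm differed most. Osm encodes oncostatin M, a cytokine of the same family that signals through gp130 paired with its own receptor. Its transcripts fell to a few reads in the Sin3a knockdown and stood higher than the controls in every Fam60a knockdown library. In the Sin3a knockdown Tcl1 fell as well and Socs3 rose, so that 3 of the 10 genes were called, where 10.2% of all tested genes were. In the Fam60a knockdown edgeR called 0 of the 10 with all libraries included, where 2.92% of all tested genes were called.

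**Figure D1:**
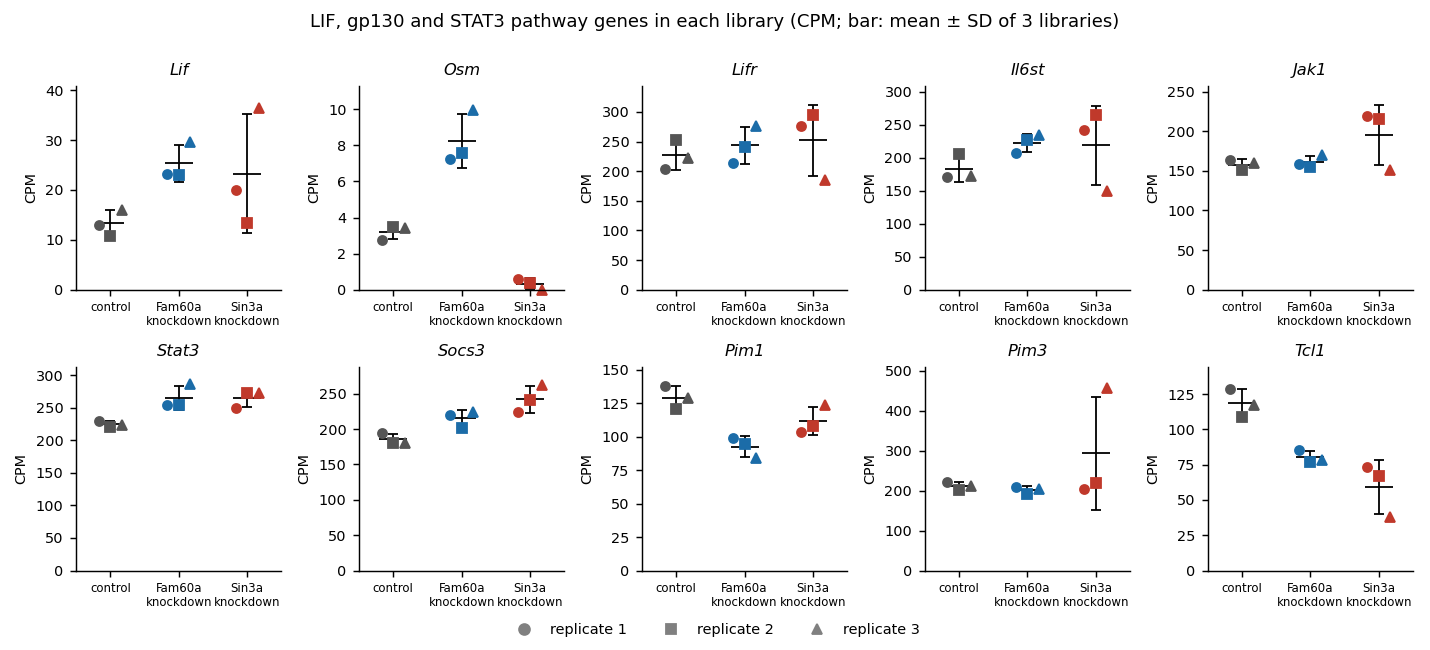
Level of each of the 10 genes in every library, in CPM on a linear axis from 0, with the mean and SD of 3 libraries per group as bars and the marker shape giving the replicate. Osm lies between 7.23 and 9.94 CPM in the Fam60a knockdown, between 2.76 and 3.46 CPM in the controls and between 0 and 0.608 CPM in the Sin3a knockdown, and Sin3a knockdown replicate 3 (red triangle) is far from its group for Lif, Pim3, Il6st, Lifr and Jak1.

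Osm (ENSMUSG00000058755, GRCm38 chromosome 11, 4236420 to 4241026, plus strand) had 17, 24 and 23 reads in control replicates 1 to 3. The Fam60a knockdown libraries held 48, 59 and 63 reads of it. The Sin3a knockdown libraries held 4, 2 and 0 reads. The 3 groups did not overlap. Means in CPM were 3.21 ± 0.392 for the controls, 8.24 ± 1.48 for the Fam60a knockdown and 0.326 ± 0.307 for the Sin3a knockdown (SD, n = 3 each). The library with 0 reads is the shallow one, in which 3 counts, the limit that a count of 0 allows, correspond to 1.22 CPM. Osm fell by 2.94 ± 0.50 on the log2 scale in the Sin3a knockdown (SE, adjusted p = 0.00908), and the value without Sin3a knockdown replicate 3 was -2.64 (adjusted p = 0.00289). The fitted value depends on the prior for so few reads. Taken as reads over library totals, 64 reads in the controls against 6 in the Sin3a knockdown gave a 7.99-fold higher share in the controls, with a 95% interval, exact by Clopper and Pearson, of 3.48 to 22.6. Such intervals cover at most counting error, since they pool the reads of the 3 libraries of a group and leave out the spread between libraries. Reads without molecular tags also need not be independent molecules.

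In the Fam60a knockdown, Osm stood 1.35 ± 0.36 above the controls on the log2 scale, and this difference was not called (adjusted p = 0.0855). Without Sin3a knockdown replicate 3, a library outside that comparison, it was called (1.36, adjusted p = 0.00877). The ratio of read shares was 2.54 (170 against 64 reads, 95% interval 1.90 to 3.44). Between the knockdowns, Osm was 4.29 ± 0.48 higher on the log2 scale in the Fam60a knockdown (adjusted p = 0.00632, and 4.003 with adjusted p = 0.000852 without that library), or 20.3-fold by read shares (95% interval 9.13 to 56.1). Leaving out any single library kept the Osm calls of the Sin3a knockdown against the controls and of the knockdowns against each other, while a fit of the 6 knockdown libraries alone did not keep the latter (adjusted p = 0.0674).

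Osm and Lif are neighbours on chromosome 11, on the same strand and with 16530 bases between the end of Osm and the start of Lif. Around them, 6 other tested genes lay within 100000 bases, and all 6 are named here. Hormad2, which codes for a meiotic chromosome axis protein and lies beyond Lif, fell in the Sin3a knockdown (log2 fold change -0.97 ± 0.19, adjusted p = 0.0135). That fall was -0.92 when Sin3a knockdown replicate 3 was left out (adjusted p = 0.00424), and Hormad2 was also called between the knockdowns (0.78 higher in the Fam60a knockdown, adjusted p = 0.0140, against 0.0528 with all libraries). Castor1, the tested gene nearest to Osm on its other side, measured 60.1 CPM in the controls, 58.2 CPM in the Fam60a knockdown and 61.2 CPM in the Sin3a knockdown. It was not called in any comparison, nor were Tbc1d10a, Sf3a1, Ccdc157 and Rnf215.

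Lif (ENSMUSG00000034394, GRCm38 chromosome 11, 4257557 to 4272514, plus strand), the cytokine that was also supplied in the medium, was higher in all 3 Fam60a knockdown libraries than in any control. Control replicates 1 to 3 measured 13, 10.8 and 16.1 CPM, from 75 to 108 reads. The Fam60a knockdown measured 23.2, 23.0 and 29.7 CPM. The Sin3a knockdown measured 19.9, 13.3 and 36.5 CPM, a range that overlapped the controls. The Fam60a knockdown stood at 190% of the control mean (log2 fold change 0.93 ± 0.35, adjusted p = 0.227), a difference called only without Sin3a knockdown replicate 3 among the single-library omissions (0.94, adjusted p = 0.0193). In the Sin3a knockdown the difference was 0.78 ± 0.36 (adjusted p = 0.206) with all libraries and 0.33 (adjusted p = 0.359) without replicate 3, which alone holds the high value. Neighbouring Osm and Lif therefore had fold changes of one sign in the Fam60a knockdown and of opposite signs in the Sin3a knockdown, and of these 4 differences only the fall of Osm was called.

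Markers of other cell types varied beside these ligands. The summed level of 10 primitive endoderm markers was 1385, 1772 and 3153 CPM in control replicates 1 to 3. It was 2793, 2785 and 4010 CPM in the Fam60a knockdown and 3271, 3194 and 7190 CPM in the Sin3a knockdown. Replicate 3 had both the highest marker sum and the highest Lif within each group. Of the 10 markers, Gata6, a transcription factor of that lineage, was called in the Sin3a knockdown (log2 fold change 1.29, adjusted p = 0.0290), where 10.2% of all genes were called. There 8 had an unadjusted p under 0.05, against 25.9% of all genes, and the 10 fold changes ran from 0.25 to 1.67 (median 1.16). For the Fam60a knockdown edgeR called 0 of the 10 markers, where 2.92% of all genes were called. At an unadjusted p under 0.05 there were 2, against 15.7%, and the fold changes ran from 0.42 to 1.55 (median 0.85). A block for the replicate number changed these counts: 9 markers were then called higher after knockdown of Sin3a, where 15% of all genes were called in either direction, and 3 after knockdown of Fam60a, where 6.13% were. In the fit with no block and no Sin3a knockdown replicate 3, 1 of the 10 was called higher in each, Gata6 (1.24, adjusted p = 0.0368, and 1.18, adjusted p = 0.0422). In that fit 24.5% of all genes were called in either direction for the Sin3a knockdown and 16.9% for the Fam60a knockdown. Trophectoderm markers, 5 in number, summed to 54.7 to 128 CPM in the controls, 90.3 to 154 CPM in the Fam60a knockdown and 68.7 to 324 CPM in the Sin3a knockdown. Their sum was again highest in replicate 3 of each group. Of the 4 tested, edgeR called 0 in either comparison, against 2.92% (Fam60a) and 10.2% (Sin3a) of all genes. At an unadjusted p below 0.05 there were 1 for the Fam60a and 0 for the Sin3a knockdown, against 15.7% and 25.9%. Without Sin3a knockdown replicate 3 the counts called were 1 and 0, against 16.9% and 24.5%. The part of these cell types in the level of Lif was not tested. In bulk RNA, fewer cells of a type and less RNA per cell cannot be told apart.

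**Figure D2:**
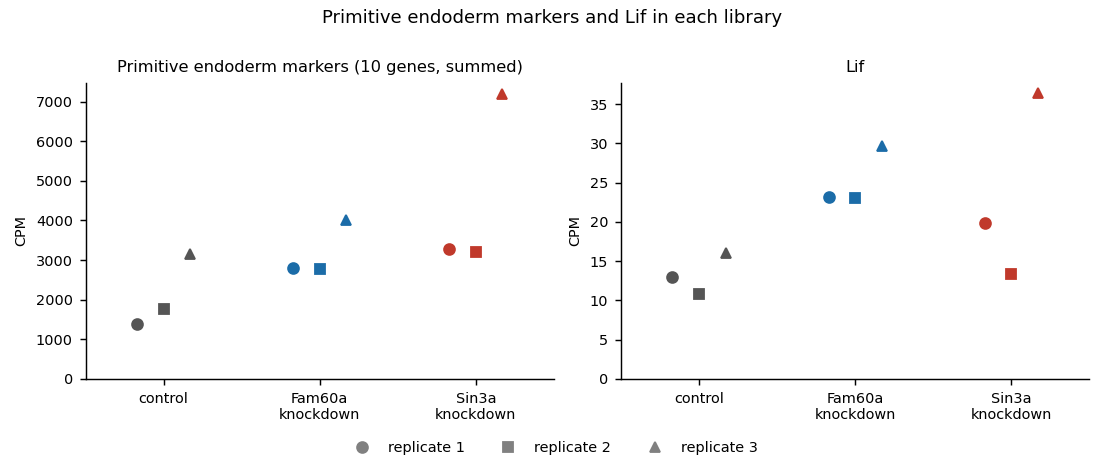
Summed level of 10 primitive endoderm markers (left) and level of Lif (right) in each of the 9 libraries, both in CPM on linear axes from 0, with the marker shape giving the replicate. Replicate 3 is the highest library of its group in both panels, up to 7190 CPM for the markers and 36.5 CPM for Lif in the Sin3a knockdown.

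Oncostatin M is made chiefly by blood cells, so markers of these were examined beside it. The 6 haematopoietic markers summed to 41.3 to 47.9 CPM in the controls, 42.7 to 47.0 CPM in the Fam60a knockdown and 14.6 to 21.5 CPM in the Sin3a knockdown. Of the 3 tested, 1 was called in each knockdown, Itgam, lower in both, against 2.92% (Fam60a) and 10.2% (Sin3a) of all genes. Their log2 fold changes ran from -2.84 to 1.38 (median -0.35) in the Fam60a knockdown and from -1.49 to -0.95 in the Sin3a knockdown. Without Sin3a knockdown replicate 3, 1 was called higher and 1 lower in the Fam60a knockdown, against 16.9% of all genes. In the Sin3a knockdown 3 were then called lower, against 24.5%. The defining member Ptprc, the leukocyte common antigen CD45, had 0 reads in all control and Sin3a knockdown libraries and at most 0.256 CPM in the Fam60a knockdown. Spi1, a transcription factor of the myeloid lineage, measured 6.99 to 9.59 CPM in the controls, 17.5 to 24.5 CPM in the Fam60a knockdown and 1.83 to 9.73 CPM in the Sin3a knockdown. It was not called with all libraries (adjusted p = 0.1999 and 0.309). Without Sin3a knockdown replicate 3 it was called higher in the Fam60a knockdown (1.40, adjusted p = 0.00354) and lower in the Sin3a knockdown (-1.90, adjusted p = 0.00268). These are the directions that Osm had, while Itgam was lower in both knockdowns. Spi1 was picked out after its values were seen. The part of Spi1 or of such cells in the level of Osm was not tested. The ES cell markers, 8 genes with Pou5f1, Sox2 and Nanog among them, summed to 1252 to 1383 CPM in the controls, 1072 to 1227 CPM in the Fam60a knockdown and 1218 to 1375 CPM in the Sin3a knockdown. Of the 8, edgeR called 0 in either comparison, against 2.92% (Fam60a) and 10.2% (Sin3a) of all genes. At an unadjusted p below 0.05 there were 1 for the Fam60a and 0 for the Sin3a knockdown, against 15.7% and 25.9%. Without Sin3a knockdown replicate 3 Nanog was called lower in the Fam60a knockdown (-0.33, adjusted p = 0.0316), against 16.9% of all genes, and 0 of the 8 were called in the Sin3a knockdown, against 24.5%. Fibroblast markers, 7 genes of which Dcn, Lum and Postn stood at or near 0, summed to 31.0 to 73.0 CPM in the controls, 22.3 to 32.1 CPM in the Fam60a knockdown and 14.6 to 51.1 CPM in the Sin3a knockdown. Of the 3 tested, 0 were called in the Fam60a knockdown and 1, lower, in the Sin3a knockdown, where 2.92% and 10.2% of all genes were called. Between the knockdowns 1 was called, higher in the Fam60a knockdown, against 3.06%. Without Sin3a knockdown replicate 3, 1 was called lower in the Fam60a and 2 in the Sin3a knockdown, against 16.9% and 24.5%.

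The receptor genes showed no call with all libraries. Lifr (ENSMUSG00000054263, GRCm38 chromosome 15, 7090614 to 7197489, plus strand), the LIF-binding chain, measured 204, 253 and 222 CPM in the controls. It measured 214, 241 and 277 CPM in the Fam60a knockdown, and 276, 296 and 184 CPM in the Sin3a knockdown. All 3 groups overlapped, with log2 fold changes of 0.11 ± 0.18 (adjusted p = 0.944) and 0.16 ± 0.18 (adjusted p = 0.626). Without Sin3a knockdown replicate 3 these were 0.12 (adjusted p = 0.505) and 0.34 (adjusted p = 0.0681).

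Il6st (ENSMUSG00000021756, GRCm38 chromosome 13, 112464070 to 112510086, plus strand), which encodes gp130, measured 171, 205 and 172 CPM in the controls. The Fam60a knockdown gave 207, 226 and 234 CPM, each above the highest control. The Sin3a knockdown gave 242 and 264 CPM in replicates 1 and 2, above all controls, and 150.4 CPM in replicate 3, below them. The log2 fold changes were 0.28 ± 0.19 in the Fam60a knockdown (adjusted p = 0.604) and 0.26 ± 0.19 in the Sin3a knockdown (adjusted p = 0.426). When Sin3a knockdown replicate 3 was left out they were 0.29 (adjusted p = 0.0420) and 0.47 (adjusted p = 0.00756), both called.

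Jak1 (ENSMUSG00000028530, GRCm38 chromosome 4, 101152367 to 101265282, minus strand), the kinase that gp130 signalling depends on most, measured 163, 150.4 and 159.8 CPM in the controls. The Fam60a knockdown, at 158, 155 and 169.7 CPM, overlapped them (log2 fold change 0.03 ± 0.14, adjusted p = 0.988, and 0.04 with adjusted p = 0.690 without Sin3a knockdown replicate 3). The Sin3a knockdown gave 219, 215 and 151 CPM, again with replicate 3 apart. That difference was 0.31 ± 0.14 (adjusted p = 0.214), and 0.46 without replicate 3 (adjusted p = 0.00162). The difference between the knockdowns was -0.28 ± 0.14 (adjusted p = 0.338), and -0.42 without that replicate (adjusted p = 0.00454), lower in the Fam60a knockdown. Exons of Jak1 overlap Raver2 on the opposite strand, and the strand setting of the counting was not given in the sources used here.

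Stat3 (ENSMUSG00000004040, GRCm38 chromosome 11, 100885098 to 100939540, minus strand), the transcription factor of the pathway, was higher in all 6 knockdown libraries than in any control. It measured 230.1, 221 and 223 CPM across the controls, 255, 254 and 286 CPM across the Fam60a knockdown and 249, 273 and 273 CPM in the Sin3a knockdown. Both means were 118% of the control mean. Neither difference was called (0.24 ± 0.10 for each, adjusted p = 0.259 for the Fam60a and 0.155 for the Sin3a knockdown). Without Sin3a knockdown replicate 3 the Fam60a difference was called (0.25, adjusted p = 0.0285) and the Sin3a difference was not (0.22, adjusted p = 0.0538). Exons of Stat3 overlap those of Stat5a on the opposite strand. Stat5a fell in the Sin3a knockdown and held 1270 reads in all 9 libraries together, fewer than Stat3 had in 8 of the single libraries.

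Socs3 (ENSMUSG00000053113, GRCm38 chromosome 11, 117966079 to 117970047, minus strand), the feedback inhibitor, rose in the Sin3a knockdown. Its libraries measured 195, 181 and 181 CPM across the controls, 219, 202 and 224 CPM across the Fam60a knockdown and 224, 240.5 and 262 CPM in the Sin3a knockdown. Every knockdown library lay above every control. The rise in the Sin3a knockdown was 0.38 ± 0.10 (adjusted p = 0.0436), a mean of 130% of the controls. The call is near the threshold: it held without Sin3a knockdown replicate 3 (0.32, adjusted p = 0.00963) and was lost without any other single library (adjusted p 0.0594 to 0.150 over the 8). It was also lost with upper quartile scaling, with no filter, with a GC correction and in a fit of the 6 libraries alone (0.0590 to 0.114). The Fam60a knockdown stood at 0.21 ± 0.10 (adjusted p = 0.359), called without Sin3a knockdown replicate 3 (0.22, adjusted p = 0.0356). The difference between the knockdowns was -0.17 ± 0.10 (adjusted p = 0.403), and -0.099 without that replicate (adjusted p = 0.359). Exon GC content of Socs3 is 60.4%, within the band over-represented in Sin3a knockdown replicate 3, where Socs3 deviated by 0.18 from the rest of its group.

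The promoter of Socs3 is shown because the bases TTCNNNGAA, the core letters of a STAT binding element, occur in it. RefSeq promoter windows on GRCm38.p6, from 250 bases before a start site to 50 bases after it, were available for 9 of the 10 genes, all but Osm. The motif reads the same on both strands and occurs in 8.3% of the 32851 promoter windows of all genes. Counted by gene, 9.55% of 27025 genes have it in a window. Among the 9 genes it was found in the window of Socs3 alone, and 1 gene of 9 is close to that share. The match therefore does not set Socs3 or these genes apart. The same letters with a wider spacing, also searched, were found in 0 windows of these genes, against 6.95% of all windows. In the line below the motif is in capitals, at bases -154 to -146 from the start site, with 8 bases on either side (chr11:117969504-117969528, minus strand). The RefSeq start lies inside the GENCODE gene given above, so that this stretch is within the annotated span of Socs3 and not before it.
Socs3: aaccagccTTCTTAGAAgggagggg
A match of letters is a description of the sequence and not of binding.

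Pim1 (ENSMUSG00000024014, GRCm38 chromosome 17, 29490753 to 29496112, plus strand) and Pim3 code for serine/threonine kinases that promote survival and self-renewal, and both are known STAT3 targets. Pim1 measured 138, 121 and 129 CPM in the controls. It measured 99.2, 94.4 and 83.9 CPM in the Fam60a knockdown, all below the lowest control. The Sin3a knockdown gave 104, 108 and 124 CPM, the last within the range of the controls. The difference of -0.48 ± 0.12 in the Fam60a knockdown, 71.6% of the control mean, was not called (adjusted p = 0.0745). Without Sin3a knockdown replicate 3 it was called (-0.47, adjusted p = 0.00502), as was that of the Sin3a knockdown (-0.29, adjusted p = 0.0435, against -0.21 ± 0.12 and adjusted p = 0.32 with all libraries). Pim1 thus stood below the controls while Stat3 and Socs3 stood above them in the same Fam60a knockdown libraries. Exons of Pim1 overlap Gm26885 on the opposite strand, a gene for which no count was used here.

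Pim3 (ENSMUSG00000035828, GRCm38 chromosome 15, 88862186 to 88865726, plus strand) measured 222, 201 and 213 CPM in the controls, against 209.6, 191 and 203 CPM in the Fam60a knockdown libraries. Replicates 1 and 2 of the Sin3a knockdown measured 205 and 219 CPM, like the controls, and replicate 3 measured 457 CPM. Pim3 has the highest exon GC content of the 10 genes, 61.0%, above that of 97.5% of the tested genes. The log2 fold change in the Sin3a knockdown was 0.46 ± 0.27 with that library (adjusted p = 0.318) and 0.00 without it (adjusted p = 0.986). With a GC correction over all 9 libraries it was 0.45 and called (adjusted p = 0.0268). The correction moved the median of all genes by 0.11 in this comparison, and relative to that move the value was 0.34. In the Fam60a knockdown Pim3 was -0.07 ± 0.27 (adjusted p = 0.98), and -0.06 without that library (adjusted p = 0.529). Between the knockdowns it was -0.54 ± 0.27 (adjusted p = 0.331), and -0.07 without it (adjusted p = 0.561).

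Tcl1 (ENSMUSG00000041359, GRCm38 chromosome 12, 105216750 to 105222793, minus strand) codes for a small protein that binds AKT and raises its activity, and it is highly expressed in undifferentiated embryonic stem cells. It measured 129, 109 and 117 CPM across the controls, 85.1, 76.9 and 78.4 CPM across the Fam60a knockdown and 73.3, 67.3 and 37.7 CPM in the Sin3a knockdown. The 3 groups did not overlap. Tcl1 fell by 0.98 ± 0.22 in the Sin3a knockdown (adjusted p = 0.0254), to 50.2% of the control mean, and the value without replicate 3 was -0.75 (adjusted p = 0.00104). That call was lost without control replicate 1, 2 or 3 (adjusted p = 0.0950, 0.0676 and 0.0635) and in a fit of the 6 libraries alone (0.0782), and it held without each knockdown library. For the Fam60a knockdown the difference of -0.56 ± 0.22 was not called (adjusted p = 0.236), and it was called without Sin3a knockdown replicate 3 (-0.55, adjusted p = 0.00311). The difference between the knockdowns was 0.42 ± 0.22 (adjusted p = 0.35), and 0.20 without Sin3a knockdown replicate 3 (adjusted p = 0.192). Of its paralogs Tcl1b1 to Tcl1b5, none had enough reads to be tested.

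The sequences before Tcl1 and before the first start of Pim1 are shown because this pair of genes stood below every control in all Fam60a knockdown libraries. The 250 bases before the start site hold 7 CG dinucleotides in Tcl1, against a median of 6 over all promoters. Pim1 has 36 at its first start and 4 at its second, which lies inside the gene. The stretches below are the parts of these windows that lie before the annotated gene, with each CG in capitals, for Tcl1 (chr12:105222794-105222987, minus strand) and Pim1 (chr17:29490535-29490752, plus strand).
Tcl1: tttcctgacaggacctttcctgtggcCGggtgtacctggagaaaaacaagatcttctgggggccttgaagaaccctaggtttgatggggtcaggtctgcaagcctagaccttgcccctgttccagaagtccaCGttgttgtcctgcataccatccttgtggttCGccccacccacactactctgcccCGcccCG
Pim1: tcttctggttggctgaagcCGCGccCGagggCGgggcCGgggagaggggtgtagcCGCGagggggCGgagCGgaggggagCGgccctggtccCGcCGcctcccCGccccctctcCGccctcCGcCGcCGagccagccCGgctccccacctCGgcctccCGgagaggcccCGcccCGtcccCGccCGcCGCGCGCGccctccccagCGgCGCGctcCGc
The printed stretch of Tcl1 holds 5 CG in 194 bases, and that of Pim1 holds 32 in 218 bases. Lif, with 6 CG in its window, was near the median as Tcl1 was, while Stat3 had 13, Jak1 19, Socs3 and Il6st 26 each and Pim3 31. Lifr had 43 at one start and 3 at the other.

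Counts over the 10 genes are set beside those over all genes as a description, since the 10 were chosen with earlier results of these data known. For the Fam60a knockdown, where edgeR called 0 of the 10 (1.49% of all genes were called higher and 1.44% lower), 5 had an unadjusted p below 0.05, against 15.7% of all genes. Adding the replicate block left the count at 0, against 6.13%. DESeq2 called 2, Osm higher and Pim1 lower. The libraries of the Fam60a knockdown and the controls did not overlap for 7 of the 10 (5 higher and 2 lower), against 34.4% of all genes. With Sin3a knockdown replicate 3 left out, 7 of 10 were called (Lif, Osm, Il6st, Stat3 and Socs3 higher, Pim1 and Tcl1 lower), against 16.9% of all genes.

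For the Sin3a knockdown the 3 called genes were Socs3, higher, where 3.91% of all genes were, and Osm and Tcl1, lower, where 6.28% were. The count stayed at 3 with the replicate block, against 15% of all genes, and 4 had an unadjusted p below 0.05, against 25.9%. Libraries did not overlap for 4 of the 10 (Stat3 as well), against 33.2% of all genes. Without replicate 3, 6 of the 10 were called (Il6st, Jak1 and Socs3 higher, Osm, Pim1 and Tcl1 lower), against 24.5% of all genes. Between the knockdowns 1 of the 10 was called, Osm, against 3.06% of all genes (2.18% higher and 0.878% lower in the Fam60a knockdown). The other 9 genes had differences of -0.54 (Pim3) to 0.42 (Tcl1), with adjusted p from 0.285 to 0.997. Pim3 was called with the GC correction (-0.51, adjusted p = 0.0315, or -0.41 relative to the median of all genes, which moved by -0.10). The count was also 1 with the replicate block, against 4.65%, and at an unadjusted p below 0.05, against 18.1%. Libraries did not overlap for 3 (Osm, Pim1 and Tcl1), against 25.5%. With Sin3a knockdown replicate 3 left out, Osm and Jak1 were called, against 14.7% of all genes, and the other 8 ranged from -0.22 (Lifr) to 0.61 (Lif), with adjusted p from 0.127 to 0.796. Median log2 fold changes of the 10 were 0.16, 0.25 and -0.03 in the 3 comparisons, beside -0.02, -0.01 and 0.01 over all tested genes. Both knockdowns are compared with the same 3 control libraries, so their fold changes are not independent of each other.

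**Figure D3:**
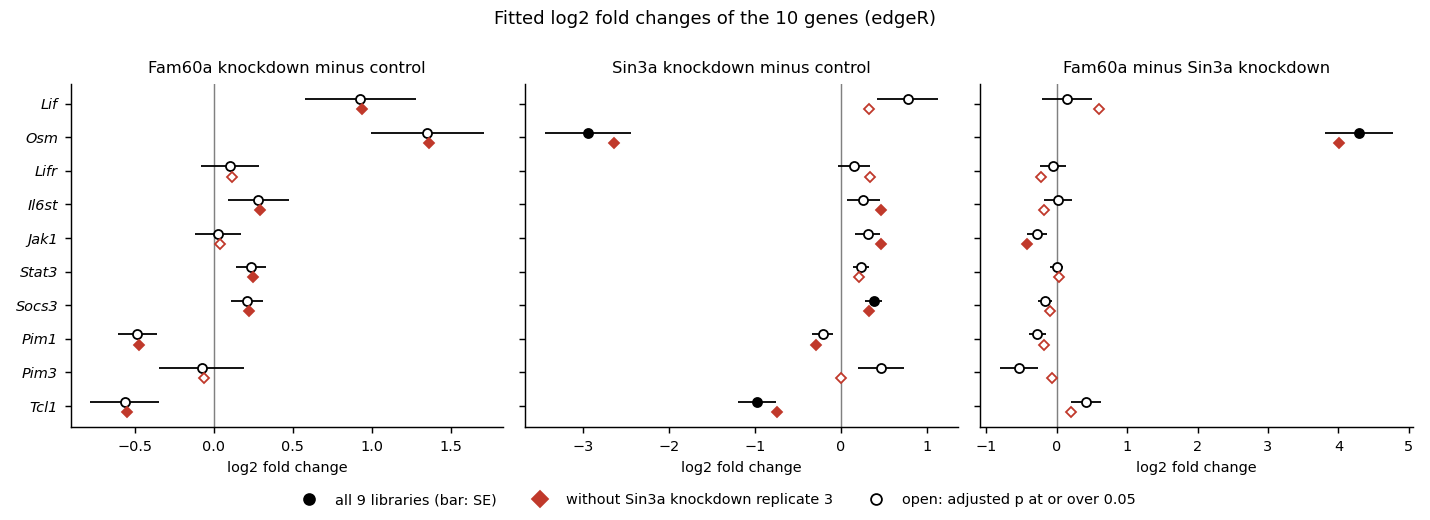
Log2 fold change of each of the 10 genes in the 3 comparisons, with all 9 libraries (circles, bars are SE) and without Sin3a knockdown replicate 3 (diamonds), filled where the adjusted p is under 0.05. With all libraries only Osm, Socs3 and Tcl1 in the Sin3a knockdown and Osm between the knockdowns are filled, and the horizontal scales differ between panels.

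On a scale that corrects for exon length (RPKM, CPM divided by exon length in kilobases), the genes fell into the same broad order in each group. In the controls Pim3 was highest at 87.3 ± 4.26 RPKM (SD, n = 3), followed by Socs3 at 64.2 ± 2.73 and Tcl1 at 64.2 ± 5.40, whose libraries overlapped. Pim1 at 38.4 ± 2.57, Stat3 at 23.6 ± 0.504, Jak1 at 21.8 ± 0.904 and Lifr at 21.0 ± 2.30 came next, with overlap between Jak1 and Lifr. Il6st, at 16.5 ± 1.74 RPKM, was lower. The ligands were lowest, Lif at 3.06 ± 0.605 and Osm at 1.41 ± 0.172 RPKM. In the Fam60a knockdown Tcl1 (43.5 RPKM) no longer overlapped Socs3 (74.4 RPKM), and Pim1 (27.5 RPKM) came level with Stat3 (27.8 RPKM). In the Sin3a knockdown Tcl1 (32.2 RPKM) stood beside Pim1 (33.3 RPKM) with overlapping libraries, and Osm was at 0.144 ± 0.135 RPKM.

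**Figure D4:**
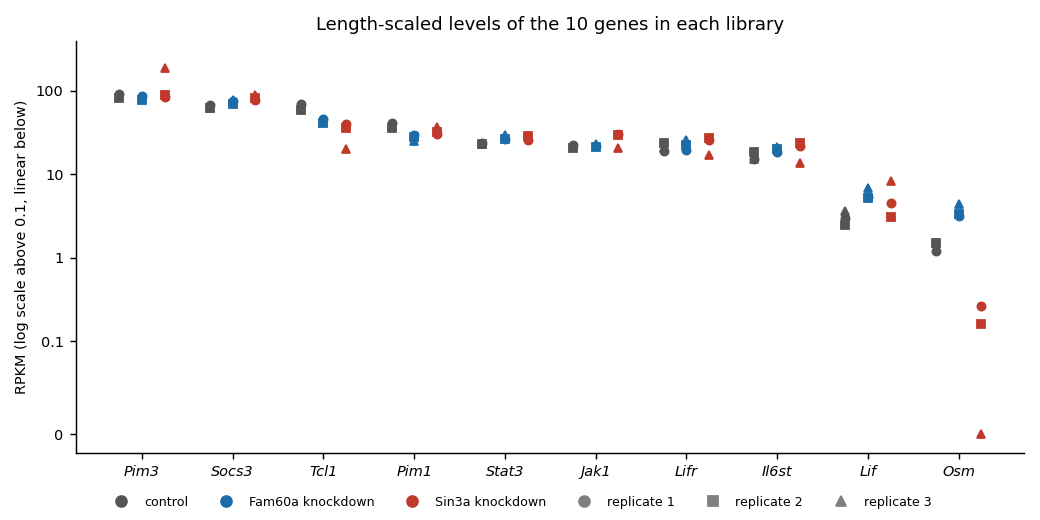
Length-scaled level (RPKM) of the 10 genes in each library, on an axis that is logarithmic above 0.1 and linear below it, ordered by the mean of the controls, with colour for the group and marker shape for the replicate. The ligand genes Lif and Osm lie lowest in every group, and Osm spans from 0 in Sin3a knockdown replicate 3 to 4.37 RPKM in the Fam60a knockdown.

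The wider pathway was followed in 8 lists with 65 further genes, of which 56 were tested. These lists too were chosen with earlier results of these data known. Under the Fam60a knockdown 2 of the 56 rose and 0 fell, with a median log2 fold change of 0.06, where 2.92% of all genes were called. Under the Sin3a knockdown 4 rose and 5 fell, with a median of -0.05, where 10.2% of all genes were called. Between the knockdowns 5 were higher in the Fam60a knockdown and 0 lower, where 3.06% were called. At an unadjusted p under 0.05 there were 13, 17 and 15 of the 56 in the 3 comparisons, against 15.7%, 25.9% and 18.1% of all genes. Without Sin3a knockdown replicate 3 the counts called higher and lower were 10 and 4, 9 and 9, and 9 and 5, against 16.9%, 24.5% and 14.7% of all genes called in either direction. With the replicate block, under which 6.13%, 15% and 4.65% of all genes were called, the Fam60a count was 4, adding Cntfr, the receptor chain for ciliary neurotrophic factor (adjusted p = 0.0260), and Socs5 (0.0443), the Sin3a counts were 6 and 5, adding Cntfr (0.0229) and Socs1 (0.0304), and between the knockdowns the count remained at 5.

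Another ligand of 3 tested and 2 receptor chains of 5 tested were called lower in the Sin3a knockdown, where 6.28% of all genes were called lower. The 5 receptor genes had a median log2 fold change of 0.42 there, with a range of -1.27 to 0.71. In the Fam60a knockdown 0 of the 5 were called, against 2.92% of all genes, and their fold changes ran from 0.36 to 0.85. Among 7 further ligand genes, 3 were tested. Ctf1, which encodes cardiotrophin 1, had 8.45, 9.52 and 7.28 CPM in the controls and 2.28, 3.52 and 4.05 CPM in the Sin3a knockdown (log2 fold change -1.39 ± 0.30, adjusted p = 0.0223). It was not called in the Fam60a knockdown (-1.05 ± 0.29, adjusted p = 0.0917) unless Sin3a knockdown replicate 3 was left out (-1.04, adjusted p = 0.0232). The call in the Sin3a knockdown was lost without Sin3a knockdown replicate 1 or 2 or any control (adjusted p 0.0520 to 0.0990).

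Osmr, the receptor chain for oncostatin M, was tested among 5 further receptor genes. It measured 1.15 to 3.57 CPM in the controls, 2.56 to 4.73 CPM in the Fam60a knockdown and 1.62 to 4.11 CPM in the Sin3a knockdown (4 to 30 reads a library), overlapping ranges, and was not called (adjusted p = 0.621 and 0.567). From the same list Il6ra and Il27ra, the specific chains for interleukin 6 and interleukin 27 that pair with gp130, were arranged as Osm was. Il6ra measured 22.3, 25.1 and 18.6 CPM across the controls, 36.5, 39.4 and 29.0 CPM across the Fam60a knockdown and 12.8, 12.97 and 13.4 CPM in the Sin3a knockdown. It fell in the Sin3a knockdown (-0.75 ± 0.20, adjusted p = 0.0474) and was not called in the Fam60a knockdown with all libraries (0.67 ± 0.20, adjusted p = 0.112), and was without Sin3a knockdown replicate 3 (0.68, adjusted p = 0.0202). Il27ra measured 9.75, 13.7 and 8.62 CPM across the controls, 17.3, 26.6 and 13.9 CPM across the Fam60a knockdown and 3.65, 5.19 and 4.46 CPM in the Sin3a knockdown. It too fell in the Sin3a knockdown (-1.27 ± 0.34, adjusted p = 0.0450) and was not called in the Fam60a knockdown (0.85 ± 0.31, adjusted p = 0.207, and 0.0699 without that library). For both genes the 3 groups did not overlap. Between the knockdowns both were higher in the Fam60a knockdown (Il6ra 1.42 ± 0.20, adjusted p = 0.0115, and Il27ra 2.12 ± 0.34, adjusted p = 0.0173). These last calls were lost without replicate 1 or 2 of either knockdown (adjusted p 0.0571 to 0.0760). The falls in the Sin3a knockdown were lost without most single libraries, for Il6ra without any but Fam60a knockdown replicate 3 or Sin3a knockdown replicate 3 (0.0715 to 0.201) and for Il27ra without any but those and Fam60a knockdown replicate 2 (0.0702 to 0.172).

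A like arrangement was seen for Stat5a and Stat5b, which encode factors activated by many cytokine receptors. Stat5a measured 22.6, 20.1 and 20.2 CPM across the controls, 30.9, 35.7 and 34.4 CPM across the Fam60a knockdown and 9.73, 12.8 and 8.51 CPM in the Sin3a knockdown. It fell in the Sin3a knockdown (-1.003 ± 0.21, adjusted p = 0.0182) and was higher in the Fam60a than in the Sin3a knockdown (1.69 ± 0.21, adjusted p = 0.00716). The fall was lost without Sin3a knockdown replicate 1 or any control (adjusted p 0.0535 to 0.0775), and the difference between the knockdowns held without each library. Stat5b was higher in the Fam60a than in the Sin3a knockdown (47.3 against 23.7 CPM, 0.997 ± 0.17, adjusted p = 0.0190), with 33.8 CPM in the controls, a call lost without any Fam60a knockdown library or Sin3a knockdown replicate 1 or 2 (0.0538 to 0.0884). With Sin3a knockdown replicate 3 left out, both were called higher in the Fam60a knockdown than in the controls (Stat5a 0.70, adjusted p = 0.0105, against 0.109 with all libraries, and Stat5b 0.50, adjusted p = 0.0247, against 0.1703), and Stat5b lower in the Sin3a knockdown (-0.55, adjusted p = 0.0223, against 0.0890).

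Among further kinases and adaptors, Pik3r1 and Jak2 were called higher in both knockdowns. With all libraries, no other was called there among 3 JAK kinases and 12 kinases and adaptors of the ERK and PI3K branches. The shares of all genes called were 2.92% for the Fam60a and 10.2% for the Sin3a knockdown. In that order, median log2 fold changes were 0.42 and -0.04 for the JAK list and 0.17 and 0.16 for the other. Pik3r1, the regulatory subunit of PI3-kinase, measured 47.8, 48.8 and 58.1 CPM across the controls, 91.0, 90.1 and 99.4 CPM across the Fam60a knockdown and 127, 109 and 148 CPM in the Sin3a knockdown. The rises were 0.86 ± 0.15 (adjusted p = 0.0205) and 1.31 ± 0.15 (adjusted p = 0.00223), and the libraries of the 3 groups did not overlap. The rise in the Sin3a knockdown held without each library, while that in the Fam60a knockdown was lost without any of its own libraries or control replicate 1 or 2 (0.0724 to 0.121). Jak2, a second kinase of gp130 receptors, rose from 33.8, 30.1 and 27.1 CPM to 54.7, 54.3 and 54.4 CPM in the Fam60a knockdown (0.84 ± 0.18, adjusted p = 0.0452) and to 52.9, 56.7 and 37.3 CPM in the Sin3a knockdown (0.70 ± 0.18, adjusted p = 0.0427). These rises were lost without most single libraries: the first held only without Sin3a knockdown replicate 2 or 3 (0.0732 to 0.150 otherwise), and the second only without Sin3a knockdown replicate 3 (0.0659 to 0.116 otherwise).

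**Figure D5:**
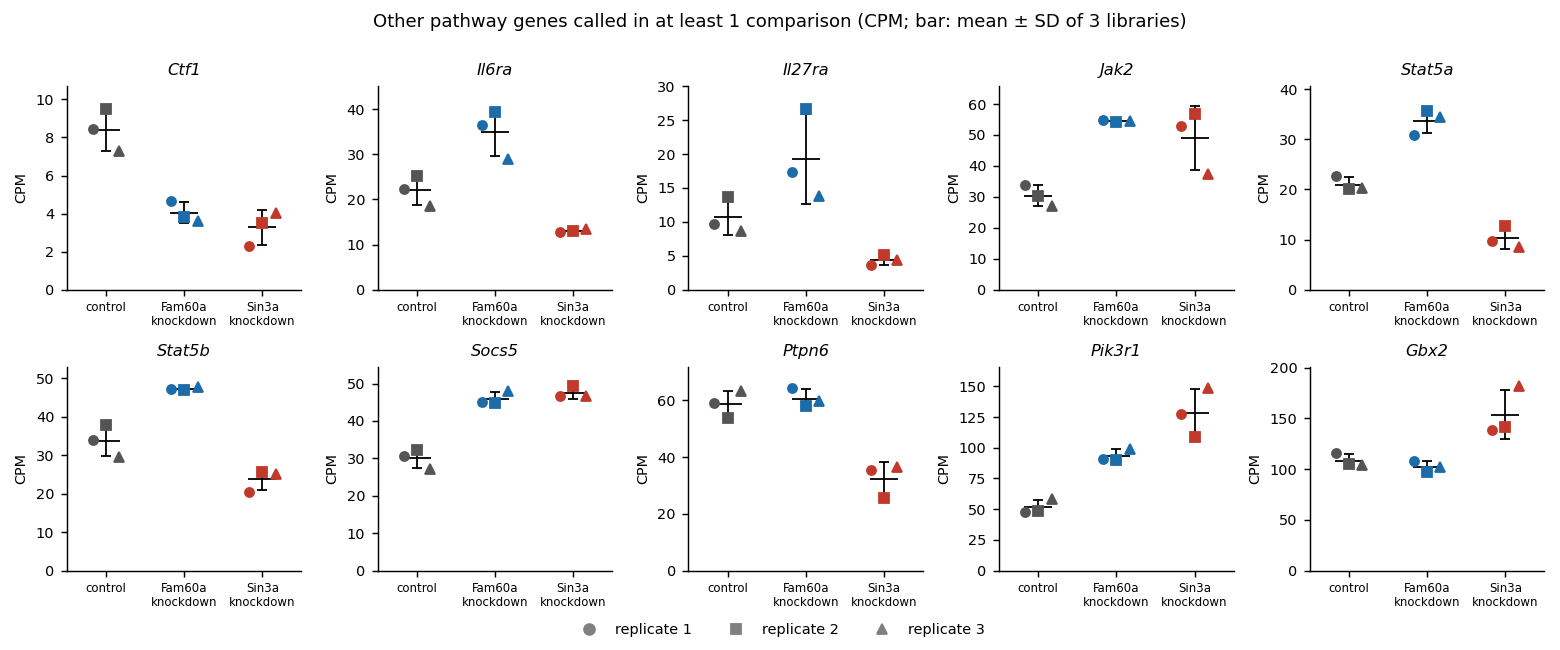
Level of 10 other pathway genes called in at least 1 of the 3 comparisons, in CPM per library on linear axes from 0, with mean and SD of 3 libraries as bars. Il6ra, Il27ra, Stat5a and Stat5b lie highest in the Fam60a knockdown and lowest in the Sin3a knockdown, and Pik3r1, Jak2 and Socs5 lie above the controls in both.

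Among 14 other inhibitors of the pathway, Socs5 rose in the Sin3a knockdown from 30.6, 32.3 and 27.1 CPM to 46.7, 49.3 and 46.6 CPM (0.67 ± 0.14, adjusted p = 0.0203). It measured 45.1, 44.8 and 48.1 CPM in the Fam60a knockdown (0.62 ± 0.14, adjusted p = 0.0534), a difference called without Sin3a knockdown replicate 3 (0.63, adjusted p = 0.00397). Ptpn6, which encodes the phosphatase SHP-1, fell in the Sin3a knockdown from 59.2, 53.7 and 63.2 CPM to 35.3, 25.6 and 36.5 CPM (-0.86 ± 0.17, adjusted p = 0.0153), with 64.5, 57.9 and 59.6 CPM in the Fam60a knockdown. Between the knockdowns it was 0.91 ± 0.17 higher in the Fam60a knockdown (adjusted p = 0.0270). The rise of Socs5 was lost without Sin3a knockdown replicate 1 or 2 or any control (0.0548 to 0.0762), the fall of Ptpn6 without Sin3a knockdown replicate 2 or any control (0.0544 to 0.0693), and its difference between the knockdowns without any library but Sin3a knockdown replicate 3 (0.0611 to 0.118). Socs2, an inhibitor of growth hormone signalling, measured 91.3 CPM in the controls, 82.6 CPM in the Fam60a knockdown and 82.5 CPM in the Sin3a knockdown and was not called.

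Genes known to respond to LIF or STAT3 in embryonic stem cells formed a list of 13, all tested. For the Fam60a knockdown edgeR called 0 of them, where 2.92% of all genes were called, with a median log2 fold change of 0.00. At an unadjusted p under 0.05 there were 0, against 15.7% of all genes. For the Sin3a knockdown 3 of the 13 had such a p, against 25.9%, and 1 was called, against 10.2%. Gbx2, a homeobox factor that sustains self-renewal, was the only one called in the Sin3a knockdown. It rose from 116, 105 and 104.5 CPM to 138, 141 and 182 CPM (0.50 ± 0.13, adjusted p = 0.0444), and the call was lost without any library but Sin3a knockdown replicate 3 (0.0595 to 0.156). The transcription factor genes Klf4, Klf5, Tfcp2l1 and Myc were not called in any comparison with all libraries. Without Sin3a knockdown replicate 3, Klf4, Myc and Gbx2 were called lower in the Fam60a than in the Sin3a knockdown (adjusted p = 0.0291, 0.0351 and 0.00665). In that comparison 1 of the 13 was called higher, and 14.7% of all genes were called. Against the controls, 1 of the 13 was then called lower in the Fam60a knockdown, where 16.9% of all genes were called. In the Sin3a knockdown 3 were called higher and 1 lower, where 24.5% of all genes were called. Tfcp2l1, which acts downstream of STAT3, measured 519 CPM in the controls, 518 CPM in the Fam60a knockdown and 390.3 CPM in the Sin3a knockdown (log2 fold change -0.40 ± 0.34, adjusted p = 0.491). Klf4 measured 191, 165 and 181 CPM in the same order, and Myc 109, 105 and 120.2 CPM.

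The genes whose levels followed each called member most closely were found by Pearson correlation of log2 CPM over the 9 libraries, which share groups, replicate numbers and depth. For Osm these were Cd99l2 (r = 0.976), Birc3 (r = 0.974) and Zc3hav1 (r = 0.973), out of 11770 protein-coding genes compared. Birc3, an inhibitor of apoptosis, stood at 13.3 CPM in the controls, 18.9 CPM in the Fam60a knockdown and 6.72 CPM in the Sin3a knockdown. For Socs3 they were Aplf (r = 0.981), Csnk1e (r = 0.976) and Mex3c (r = 0.973), and for Tcl1 Zfp710 (r = 0.990), Zic5 (r = 0.989) and Mta1 (r = 0.986). These are the highest of many values and are given as a description.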

How the data were processed

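Each of the 9 libraries has a deposited table of counts, whole reads summed per Ensembl gene and not normalized. Per the labels' protocols, total RNA was made into TruSeq Stranded libraries and read as single ends of 50 bases. Per the submitters' processing notes, STAR 2.4.0j, Picard and featureCounts of Subread were used, and per the file headers duplicate reads had been removed before counting, which can lower the counts of highly expressed genes. For the genome build, the annotation and the strand setting of the counting, the answer is: not given in the sources used here. Symbols, positions, exon length and GC content came from GENCODE M21 (GRCm38) by gene ID, matching 32937 of 37990 genes. The 3 libraries whose titles name neither target were taken as the scrambled controls by elimination. The p-values measure only the spread between these libraries.

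The analysis used edgeR 4.0.16 (with limma 3.58.1, in R 4.3.3): filterByExpr, TMM scaling, 1 model of 3 groups over 9 libraries, robust quasi-likelihood F-tests, and Benjamini-Hochberg adjustment over 14465 genes. The code was tested on simulated data. CPM is TMM-scaled, correlations used a prior count of 2, and each SE is the fold change divided by the root of its F statistic. Alternatives were DESeq2 1.42.0, other scalings and filters, a GC correction, the replicate number as a block, only the 6 libraries compared, and leaving out each library. Same-numbered libraries of different groups deviated together (r of 0.178 to 0.622 in 9 pairs, against -0.448 to 0.113 in 18 others, across genes). The labels do not say what a number marks, so the reported model does not pair the libraries and the replicate block is given as an alternative.

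Named genes were the 10 members, both targets, up to 3 called genes per list, direction and comparison, a fixed set (Klf4, Tfcp2l1, Gbx2, Klf5, Myc, Jak2, Socs2, Il6ra), and the 3 protein-coding genes of at least 5 CPM most correlated with each called member. The neighbours of Osm, and Spi1, Itgam, Nanog, Gata6, Osmr, Cntfr and Socs1, were named outside this rule after their values were seen. Of the pathway lists, 2 genes are not reported here. The members and lists were chosen with earlier results of these data known.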

Additional observations from a re-analysis of the deposited data

How the results depend on the processing

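Depth limited Osm most, at 0 to 63 reads per library, and no group of 3 libraries was large enough to test for an outlying library. For each setting the counts are of all genes called, in the order Fam60a knockdown against control, Sin3a knockdown against control and Fam60a against Sin3a knockdown, which were 423, 1475 and 443 as reported, with 0, 3 and 1 of the 10 genes. DESeq2 gave 1181, 2507 and 1332 genes, with 2 of the 10 in the first. The replicate block gave 887 and 672 in the first and last comparisons and 2164 in the Sin3a knockdown, changed the call of 0 of the 10 genes, and of the other genes named changed those given above. The GC correction gave 791, 2580 and 1099 genes, with 1 of the 10 in the first and 2 in the last. It moved the split of higher and lower calls from 566 and 909 to 1534 and 1046 in the Sin3a knockdown and from 316 and 127 to 470 and 629 between the knockdowns. With the replicate block added it gave 1800, 4033 and 2086 genes, with 3, 5 and 3 of the 10. Fitting only the 6 libraries compared gave 1827, 739 and 0 genes, with 5, 1 and 0 of the 10. In that last fit 1771 genes, 1 of them Osm, had an unadjusted p under 0.05, and the cause of the lower counts was not tested. Leaving out 1 library gave 11 (without control replicate 1) to 2495 genes in the first comparison, 521 (without control replicate 2) to 3606 in the second and 48 (without Fam60a knockdown replicate 2) to 2166 in the third, each highest without Sin3a knockdown replicate 3. Of the 10 genes, 0 to 7, 1 to 6 and 1 to 2 were then called.

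Calls that alternatives added among the 10 genes were, in the Fam60a knockdown, Osm with DESeq2 (adjusted p = 0.00663) and with the 6 libraries alone (0.0162), Pim1 with DESeq2 (0.00663), the GC correction (0.0447) and the 6 libraries alone (0.0136), Lif (0.0241), Stat3 (0.0430) and Tcl1 (0.00782) with the 6 libraries alone, and Osm (0.0290), Pim1 (0.0242) and Lif (0.0155) with the GC correction and replicate block. In the Sin3a knockdown they were Pim3 (0.0268) and Stat3 (0.0348) with the GC correction, and Lif (0.0162), Pim3 (0.0196) and Stat3 (0.0366) with the replicate block as well. Between the knockdowns Pim3 was called with the GC correction (0.0315) and, with Pim1 (0.0392), with the replicate block as well (0.0227). Among other named genes in the Sin3a knockdown, calls ended for Jak2 and Gbx2 with upper quartile scaling (0.0548 and 0.0591), for Gbx2, Jak2, Il27ra and Il6ra with no filter (0.0535 to 0.101), for Il6ra with DESeq2 size factors (0.0523) and for Stat5a with the GC correction (0.0518). With the 6 libraries alone they ended for Ctf1, Gbx2, Il27ra, Il6ra, Jak2, Ptpn6, Socs5 and Stat5a in the Sin3a knockdown (0.0653 to 0.123), and for Il6ra, Il27ra, Ptpn6, Stat5a and Stat5b between the knockdowns (0.0707 to 0.129). Calls gained in the Fam60a knockdown were those of Ctf1 (0.0212), Il6ra (0.0153), Socs5 (0.000204), Stat5a (0.00335) and Stat5b (0.0362) with DESeq2, of the same 5 with the 6 libraries alone (0.0114 to 0.0378), of Ctf1 (0.0316), Il6ra (0.0217), Il27ra (0.0156) and Socs5 (0.0227) with the GC correction and replicate block, and of Socs5 with the GC correction (0.0351). Sin3a transcripts, lower in the Fam60a knockdown, gained a call there with DESeq2 (0.00582), the 6 libraries alone (0.0120) and the GC correction (0.0338, and 0.0213 with the replicate block). DESeq2 also called Stat5b in the Sin3a knockdown (0.0280) and, between the knockdowns, Gbx2 (0.00230), which the GC correction called too (0.0103, and 0.00760 with the replicate block). In the Fam60a knockdown Pik3r1 lost its call with the GC correction (0.0608) and Sinhcaf with no filter (0.0539), and Sinhcaf also without any single library but Sin3a knockdown replicate 3 (0.0510 to 0.133).

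Differences that changed sign were all uncalled as reported. Between the knockdowns, Stat3 (0.00 as reported) was -0.020 with DESeq2, -0.022 with its size factors, -0.00048 with the replicate block, -0.090 with the GC correction and -0.093 with both, and -0.057 to 0.033 without 1 library. Il6st was -0.035 with the GC correction, -0.018 with the replicate block as well and -0.17 to 0.16 without 1 library. Klf5 was -0.0026 with DESeq2, -0.058 with the GC correction, -0.059 with the replicate block as well and -0.0049 to 0.077 without 1 library. Socs2 was 0.023 with upper quartile scaling, 0.0075 with no filter, 0.021 with the replicate block and -0.18 to 0.15 without 1 library. Without 1 library the ranges were -0.17 to 0.61 for Lif, -0.22 to 0.060 for Lifr and -0.36 to 0.0086 for Klf4. For the Sin3a knockdown Klf4 was 0.15 with the GC correction, 0.086 with the replicate block as well and -0.20 to 0.16 without 1 library, and Socs2 ranged from -0.27 to 0.052. For the Fam60a knockdown Tfcp2l1 was 0.042 with no filter, 0.0038 with the stricter filter, 0.012 with the 6 libraries alone and -0.052 to 0.073 without 1 library, and Jak1 ranged from -0.0087 to 0.064. The other scalings moved the median of all genes by less than 0.1 on the log2 scale, and the GC correction moved it by 0.11 in the Sin3a knockdown and by -0.10 between the knockdowns. Relative to those moves Stat3, Il6st and Klf5 kept their sign between the knockdowns (0.014, 0.068 and 0.046), Klf4 in the Sin3a knockdown did not (0.045), and Socs2 between the knockdowns changed sign (0.040).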
